A study of Mus musculus with 2 samples.

Results

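The 10 genes described here are known from germ cells or belong to the developmental pluripotency-associated (Dppa) genes: Dppa2, Dppa3, Dppa4, Dppa5a, Dazl, Mael, Prdm1, Prdm14, Tfap2c and Kit. They were chosen by name, as every non-control probe whose gene name in the scanner files equals a member, and make up 10 of the 34650 gene names on the array. They were read by 13 probes. Of the members, 8 had 1 probe, Dppa2 had 2 and Dppa4 had 3.

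Total RNA was measured on 2 one-colour arrays, 1 for EpiSC and 1 for ELA-EpiSC. EpiSC, epiblast stem cells, were made from mouse embryonic stem (ES) cells of the E14Tg2A line, strain 129/Ola, which were directly given FGF2 at 12 ng/mL together with Activin A at 20 ng/mL. For ELA-EpiSC, these factors were given to Epiblast-Like Aggregates (ELA) that ES cells of this line had formed. The comparison asks how near the 2 derivations come to each other. Both groups derive from a single cell line and each RNA was a pool of 3 sets of experiments, so that culture variation was averaged within the pool and no difference below has a replicate or a test. The titles and molecule fields were used to name the groups, whereas the source fields name undifferentiated cells and, for EpiSC, an Argonaute immunoprecipitate.

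Primordial germ cells, the embryonic precursors of eggs and sperm, arise from the epiblast in response to BMP and Wnt signals. Prdm1 (Blimp1), Prdm14 and Tfap2c (AP-2 gamma) are the transcription factors that specify them, and Dppa3 (Stella) marks them as they form. Kit is the receptor through which they receive survival and migration signals. Several of these genes are also used in pluripotent cells, where many later germline genes are held silent by DNA methylation and by repressor complexes until the germ cells erase their methylation.

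The probes decide what each measurement can see, so 30 bases of each probe of the Dppa genes are shown, 5′ to 3′ in the sense of the transcript, with the polyadenylation hexamer AATAAA in capitals where it occurs. They come from the array files. The first 3 lines are the Dppa4 probes in order of their signal on the EpiSC array.
Dppa4, probe 1: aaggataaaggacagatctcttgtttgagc
Dppa4, probe 2: ccgatgcttcgtcctcatcagaagtcaaag
Dppa4, probe 3: tgaatggttaaatttcccctgagttccttc
Dppa2, probe 1: ctagtatagagttcattgcttgtgctaaac
Dppa2, probe 2: cctaagaaactttaaaattagaagccgtgc
Dppa5a: ccactctaAATAAAaAATAAAattgaagtg
Dppa3: cccagggctgaggAATAAAgtaaatagaat

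The hexamer was present in 2 of the 13 member probes, those of Dppa3 and Dppa5a, and in 10.1% of all 55681 probes of the array. The Dppa5a probe holds it at 2 places. The probe of Dppa5a, that of Dazl and the probes 1 and 3 of Dppa4 carry a stop codon in all 3 reading frames and cannot lie wholly in coding sequence. Probe 2 of Dppa4 leaves 2 frames free of stop codons. Runs of 20 bases were shared with a probe of another gene only by the Prdm1 probe, which shared one with a probe named Pkp4, and no pair of probes of 1 member shared such a run. The GC content of the member probes lay between 35.0% and 51.7%, the latter in probe 2 of Dppa4, against a median of 43.3% over the array.

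On the mm9 assembly, which the array files use, Dppa2 and Dppa4 lie near each other on chromosome 16. Dppa4 was read at chr16:48293216-48293867, chr16:48291368-48291427 and chr16:48294346-48294405 by probes 1, 2 and 3, and Dppa2 at chr16:48319381-48319440 and chr16:48317579-48318787 by probes 1 and 2. Probe 1 of Dppa4 covers 652 bases of genome and probe 2 of Dppa2 covers 1209, so each of these 60-base probes crosses an exon junction. All 5 are on the plus strand.

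Signal was first read against background. A probe was called detected where the scanner software marked its spot as well above background. Of the 10 members, 7 were detected on both arrays, Dppa3 on the EpiSC array only, and Dazl and Prdm14 on neither. Of all gene names, 69.3% (24005 of 34650) had at least 1 detected probe on each array. Levels are normalized log2 intensities and are not compared between probes, since probes differ in how strongly they bind their target. A gene with several probes was given the value of its brightest detected probe.

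**Figure D1:**
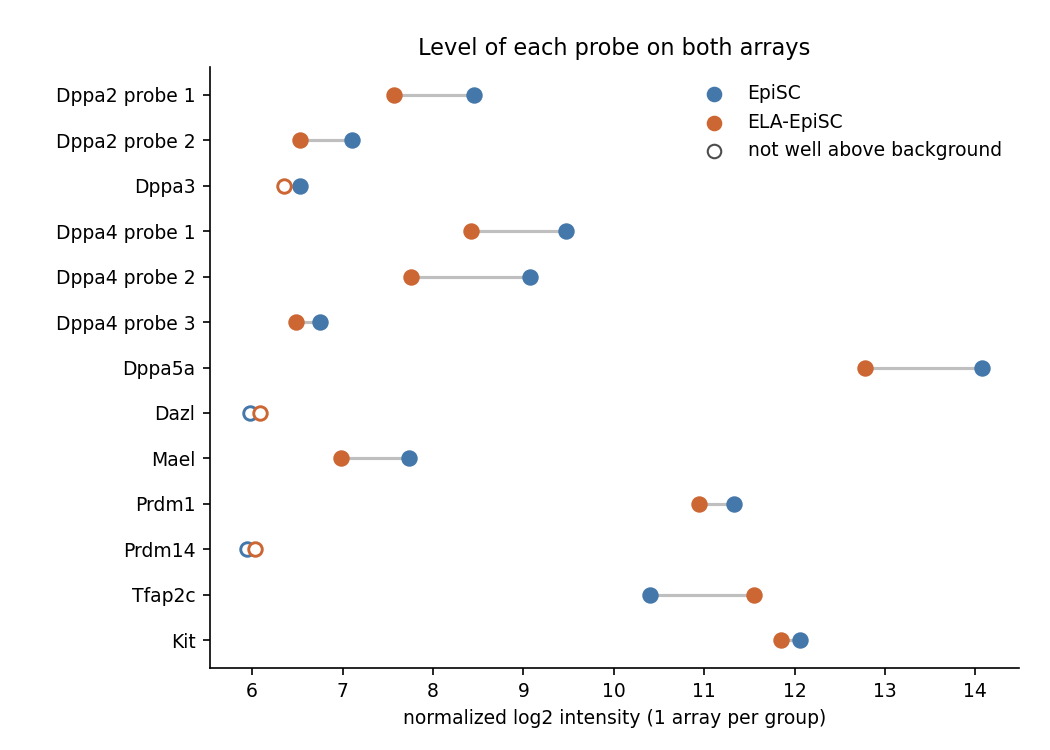
Normalized log2 intensity of each of the 13 member probes on the EpiSC array and the ELA-EpiSC array, 1 array per group, joined by a grey line; open circles were not well above background. All 5 probes of Dppa2 and Dppa4 and that of Dppa5a sit lower on the ELA-EpiSC array, and that of Tfap2c sits higher.

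The Dppa genes among the members were lower on the ELA-EpiSC array wherever they were detected on both. Dppa5a, an RNA-binding protein of pluripotent cells, had a log2 level of 14.07 in EpiSC against 12.78 in ELA-EpiSC. The difference, given throughout as log2 ELA-EpiSC minus EpiSC, was -1.30, that is 2.45-fold higher in EpiSC. Before normalization its spot read 16167 intensity units in EpiSC against 7617 in ELA-EpiSC, over a local background of 30 and 25. The only measure of error was the spread over replicate spots: among probes printed 10 times, the SD of a difference was 0.096 at log2 levels of 10 or more (121 probes), 0.11 between 7.5 and 10 (55 probes) and 0.098 below 7.5 (89 probes). The difference of Dppa5a was 13.5 times that spot SD, which covers neither labelling nor culture.

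Dppa4 and Dppa2 encode SAP-domain proteins that bind chromatin together. Probe 1 of Dppa4 stood at 9.47 in EpiSC against 8.42 in ELA-EpiSC, a difference of -1.05 (2.07-fold). Probe 2 stood at 9.07 and 7.75, a difference of -1.32 (2.49-fold). Probe 3 was dim, at 6.75 and 6.49, and differed by -0.27. The 3 probes therefore gave 1 direction and different sizes. Probe 1 of Dppa2 stood at 8.46 in EpiSC against 7.57 in ELA-EpiSC, a difference of -0.89 (1.85-fold). Probe 2, which crosses the junction, stood at 7.10 and 6.53, a difference of -0.57. The difference was 8.32 times the spot SD for probe 1 of Dppa2 and 9.83 times for probe 1 of Dppa4, and all 5 probes of the pair were below 0.

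Dppa3, a maternal factor that protects methylation in the egg and early embryo, was at the edge of detection. Its spot read 52.0 intensity units in EpiSC, well above background, and 44.4 in ELA-EpiSC, which was not. The normalized log2 values were 6.53 and 6.36, a bound of at least 1.13-fold higher in EpiSC on this scale. The difference was 1.82 times the spot SD. It kept its sign in 13 of 14 alternative settings, at -1.24 with the processed signal, and turned to 0.36 with the spike-in probes set equal.

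Dazl and Mael act in germ cells proper. Dazl, an RNA-binding protein that controls translation, did not rise well above background on any array, with spot signals of 30.8 and 30.3 over a local background of 26 and 20, and no difference is given. Mael, a protein of the piRNA pathway, which silences transposons, was detected on both. Its log2 level was 7.73 in EpiSC against 6.99 in ELA-EpiSC, a difference of -0.74 (1.68-fold) and 7.57 times the spot SD. Its mean log2 of 7.36 fell short of the minimum of 7.5 that was set for counting a gene, so Mael enters no count of genes past 1.

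Of the 3 transcription factors of germ cell specification, Tfap2c and Prdm1 were detected and stood on opposite sides of 0 on the normalized scale, though not with the spike-in probes set equal. Tfap2c stood at 10.40 in EpiSC against 11.56 in ELA-EpiSC, a difference of 1.16 (2.23-fold), with spot signals of 1182 and 3306. It was the only member higher on the ELA-EpiSC array among those detected on both. Prdm1 stood at 11.33 and 10.95, a difference of -0.39 (1.31-fold) and 4.04 times the spot SD. Prdm14 likewise stayed near background on both arrays, with spot signals of 29.4 and 32.3 over a local background of 26 and 25. A signal this low bounds the level of its transcript at this probe only.

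Kit was the member with the smallest difference among those detected on both arrays. Its probe was printed in 2 spots, which gave -0.20 and -0.23. The mean level was 12.06 in EpiSC against 11.85 in ELA-EpiSC, a difference of -0.22 (1.16-fold), or 2.25 times the spot SD. The spot signal before normalization went the other way, from 3857 in EpiSC to 4040 in ELA-EpiSC, so the sign of this difference depends on the normalization.

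Read against all genes, members were counted where the absolute difference reached 1 and the mean log2 reached 7.5, sizes taken from the methods of the study. Of the 10 members, 6 passed the minimum. Of these, Dppa4 and Dppa5a were lower in ELA-EpiSC by at least 1, beside 4.46% of all genes (742 of 16649), and Tfap2c was higher by at least 1, beside 4.54% (756 of 16649). Differences lower than that of Dppa5a were found in 2.59% of the 16649 genes, lower than that of Dppa4 in 4.03% and lower than that of Dppa2 in 5.47%. For Prdm1 the share was 18.6%, for Kit 29.5% and for Tfap2c 96.5%. Of the 7 members detected on both arrays, 6 were below 0, where 50.4% of all such genes were (12066 of 23931, judged by the brightest detected probe of each). Their median difference was -0.74, which is the value of Mael, and that of all genes was -0.0026. In RNA of a whole culture, fewer cells with a transcript and less of it per cell cannot be told apart.

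**Figure D2:**
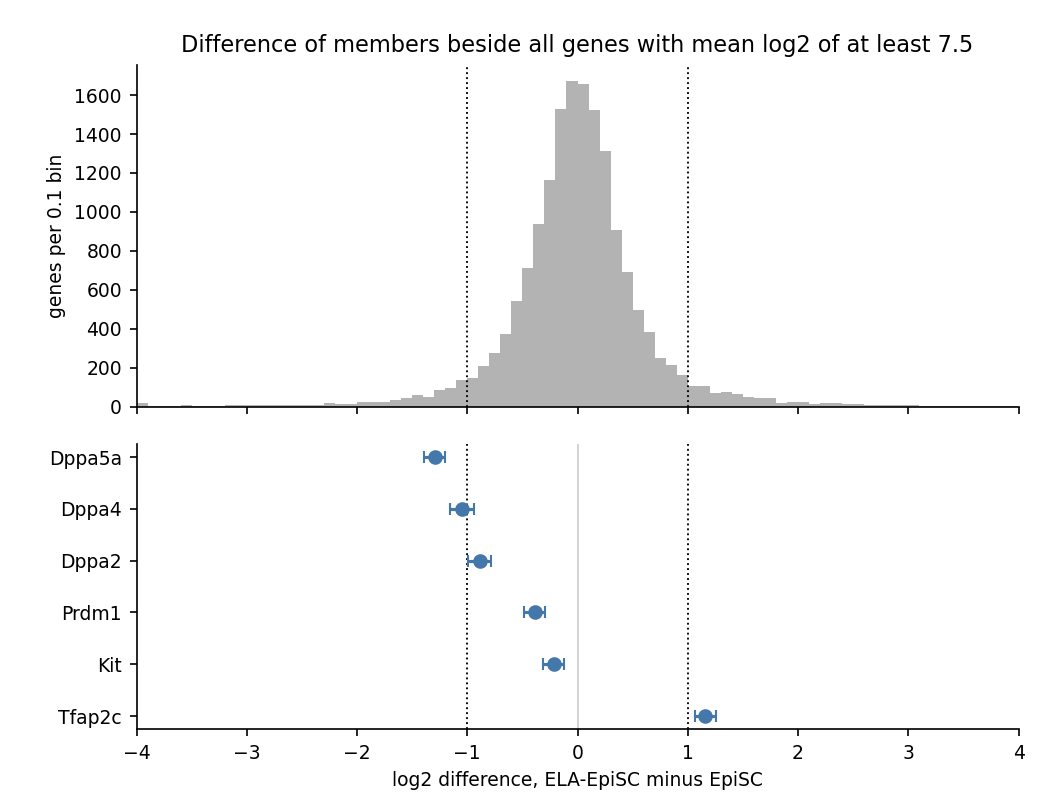
Top, number of genes per 0.1 bin of log2 difference (ELA-EpiSC minus EpiSC) among the 16649 genes whose mean log2 reached 7.5, with 21 genes beyond 4 placed in the end bins; bottom, the 6 members that passed this minimum, with the SD of a difference over replicate spots as error bars. Dotted lines mark a difference of 1 in either direction; Dppa5a and Dppa4 lie beyond it to the left and Tfap2c to the right.

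Scale decides some of these directions. The 8 of 10 spike-in probes that were detected on both arrays had a mean difference of -0.54, with single probes from -0.86 to -0.26. Setting them equal means equal on average here, which adds 0.54 to every difference. Under this scaling Dppa5a stood at -0.76, Dppa4 at -0.51, Dppa2 at -0.35 and Mael at -0.21. Prdm1 turned to 0.15, Kit to 0.32, the dim probe 3 of Dppa4 to 0.27 and Dppa3, not detected in ELA-EpiSC, to 0.36. No member was then lower by 1. Tfap2c stood at 1.70. Over all 15 alternatives, the signs of Dppa2, Dppa4, Dppa5a, Mael and Tfap2c did not change, and Tfap2c was past 1 in each of them, with values from 1.13 to 1.70.

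**Figure D3:**
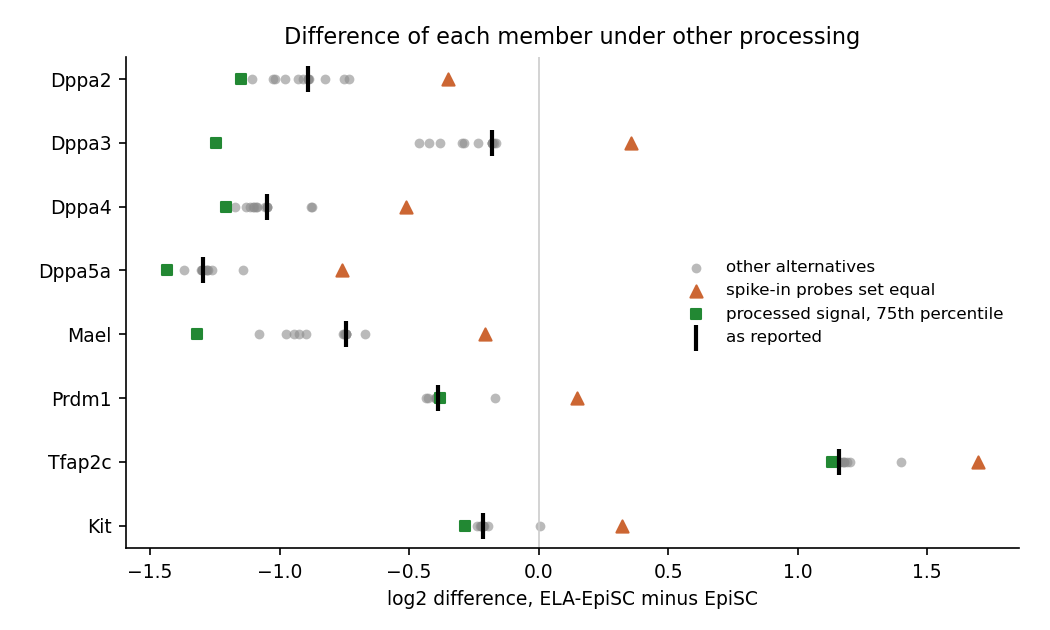
Log2 difference (ELA-EpiSC minus EpiSC) of the 8 members detected on at least 1 array, as reported (black bar) and under the alternative settings (points). The spike-in scaling (triangles) moves every member to the right, and the processed signal (squares) gives the lowest value for every member shown except Prdm1; for Dppa3 the points are against a spot that was not well above background on the ELA-EpiSC array.

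The signals that induce primordial germ cells moved in both directions. Of 15 listed genes, 13 were detected on both arrays, with a median difference of 0.22. Higher by at least 1 were T (2.48), the transcription factor that acts downstream of Wnt in this step, the ligands Bmp4 (1.77) and Bmp8b (1.68), and Wnt3 (1.42). Bmp8a, at 0.91, passed 1 with the spike-in probes set equal. Id1, a direct target of BMP signalling, stood at 14.70 in EpiSC against 12.55 in ELA-EpiSC and was lower by 1 or more, at -2.15. The receptors Bmpr1a (0.13), Bmpr2 (-0.24) and Acvr1 (0.22) and the signal transducers Smad1 (-0.23), Smad4 (0.31) and Smad5 (-0.29) differed by less than 0.5, and each of these except Acvr1 and Smad4 changed sign under at least 1 scaling.

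Genes of early germ cells were detected in 15 of 16 cases on both arrays, with a median of 0.10. Itgb3 (2.60), an integrin subunit, and Ifitm1 (2.15), an interferon-inducible membrane protein of early germ cells, were higher in ELA-EpiSC by at least 1. Rhox5 (-1.39), a homeobox gene of the X chromosome, and Cxcr4 (-1.24), the chemokine receptor that guides germ cell migration, were lower by at least 1. Neither was past 1 with the spike-in probes set equal. Nanos3, which keeps primordial germ cells alive, stood at 10.64 in EpiSC against 10.76 in ELA-EpiSC, a difference of 0.12. Dnd1 differed by 0.87 and Ifitm3 by 0.95, and both passed 1 under other scalings, among them that with the spike-in probes set equal.

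Later germ cell and meiotic genes were mostly dim: of 30 listed genes, 20 were detected on both arrays, 8 on neither, and 8 passed the level minimum. Rec8, a meiotic cohesin, stood at 11.36 in EpiSC against 9.79 in ELA-EpiSC (-1.57), and Sycp3, a component of the synaptonemal complex, at 12.68 and 11.36 (-1.32). These 2 were lower by at least 1 and none was higher; Rpl10l differed by 1.42 and fell short of the level minimum, which it passed with the spike-in probes set equal, where Sycp3 was no longer past 1. Ddx4 (Vasa), an RNA helicase of germ cells, stood at 7.30 and 6.68 (-0.62). Stra8 and Nanos2 were not detected on either array. The median of the list was -0.06.

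Among 17 piRNA and transposon-silencing genes, the pathway of Mael, 8 were detected on both arrays and 9 on neither. Tex19.1, an inhibitor of transposons, was lower in ELA-EpiSC, at 10.58 and 9.37 (-1.20), and Tdrd5, a Tudor-domain protein, was higher, at 9.94 and 11.86 (1.93). With the spike-in probes set equal Tex19.1 stood at -0.67. Of the Piwi proteins, Piwil1 and Piwil4 were not detected and Piwil2 differed by 0.52 at log2 levels of 6.63 and 7.16. The median of the 8 genes was -0.49 and turned to 0.05 with the spike-in probes set equal.

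The repressors that hold germline genes silent showed no member past 1 on the normalized scale. All 16 genes of the PRC1.6 complex and its H3K9 methylation partners were detected on both arrays, from -0.48 in Ehmt2 (G9a) to 0.57 in Rnf2 (Ring1b), with a median of 0.11. Of the factors that bind DNA in this complex, E2f6 stood at -0.05, Tfdp1 at -0.04 and Max at 0.08. Mga stood further from 0, at 0.33. Max and Mga kept their sign under every scaling. All 9 genes of DNA methylation were detected too, with a median of 0.08. The extremes were Dnmt3b, the main de novo methyltransferase of primed cells, at -0.84, and Dnmt3a, at 0.49. With spike-in scaling the medians were 0.65 and 0.62, beside 0.53 for all genes, and this scaling made the median of every list described here positive. With the processed signal the median of the repressors was -0.04. Genes past 1 under another scaling were Rnf2, Dnmt3a and Dnmt3l, higher with the spike-in probes set equal, and Dnmt3b, lower with both scalings to the 75th percentile.

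Of 15 genes for the Kit ligand and its signalling chain, 14 were detected on both arrays and none passed 1 on the normalized scale, with a median of 0.06 (-0.04 with the processed signal). Under other scalings Pik3r1 was lower by at least 1 (processed signal), and Gab1 (median of all probes and spike-in probes), Cbl and Fyn (spike-in probes) were higher. Kitl, the ligand, stood at 7.89 in EpiSC against 7.46 in ELA-EpiSC (-0.43, positive with the spike-in probes set equal). Pik3r1, a PI3 kinase subunit, differed by -0.93 and Gab1, an adaptor, by 0.79. Among 11 genes of the 2-cell-like state on the array, which Dppa2 and Dppa4 are known to activate through Dux, 3 were detected on both arrays and 6 on neither. Dux was dim, at 6.74 and 6.82 (0.08), and changed sign under at least 1 scaling. Zfp352 stood at 10.95 and 10.63 (-0.33, positive with the spike-in probes set equal), which is also the median of the 3. Tcstv3 was lower in ELA-EpiSC, at 8.34 and 6.73 (-1.61), with values from -2.59 to -1.07 over the scalings. Counting also requires the level minimum, and Tcstv3 was not counted past 1 under several scalings, among them the processed signal and the median of all probes.

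**Figure D4:**
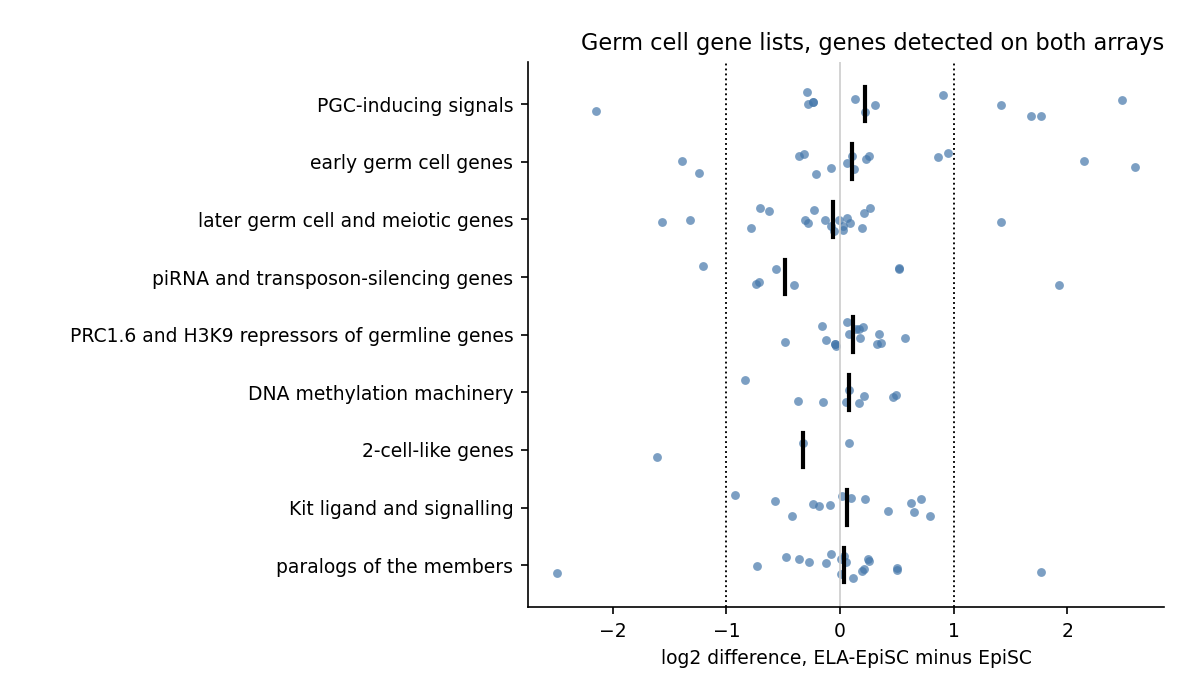
Log2 difference (ELA-EpiSC minus EpiSC) of the genes detected on both arrays in each of 9 lists, 1 point per gene, with the list median as a black bar and dotted lines at 1 in either direction; points are spread vertically at random. The repressor, DNA methylation and Kit signalling lists lie wholly within 1, and the inducing signals reach from -2.15 to 2.48.

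Relatives of the members did not share their differences throughout. Of 21 paralogs on the array, 19 were detected on both, with a median of 0.03. Dppa1 was dim, at 6.31 and 6.36 (0.05), and changed sign under at least 1 scaling. Prdm6 stood at 9.17 in EpiSC against 6.68 in ELA-EpiSC (-2.49). Prdm16 was detected in EpiSC only, at least 3.49-fold higher there. Of the AP-2 family, Tfap2b was not detected, Tfap2a stood at 7.07 and 6.72 (-0.36, positive with spike-in scaling), Tfap2d at 6.38 and 6.30, and Tfap2e at 6.51 and 6.76. Pdgfra, a receptor kinase related to Kit, was higher in ELA-EpiSC, at 7.98 and 9.75 (1.77).

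Genes next to the members were read from the order of protein-coding genes in RefSeq (GRCm38.p6, used for order only). Dppa4 and Dppa2 are direct neighbours in that order. Morc1, on the far side of Dppa2, differed by -0.10. On the far side of Dppa4 a predicted gene that is not on the array is followed by Nectin3, which differed by 0.20. Dppa3 lies in a cluster of pluripotency genes, in which Gdf3, a TGF-beta family ligand, stood at -1.62, Apobec1 at 1.16, Slc2a3 at -0.77 and Nanog at 0.32. Kit is flanked by Pdgfra, at 1.77, and Kdr, at -0.43. Next to Mael, Gpa33 stood at 0.13 and Ildr2 at -0.16. Next to Prdm1, Atg5 stood at -0.05 and Prep at 0.28. Next to Tfap2c, Bmp7 stood at -0.48. Dazl lies between Rftn1, at -0.92, and Plcl2, at 0.90. Prdm14 lies between Slco5a1, at 0.05, and Ncoa2, at 0.13, with Sulf1, at 1.01, beyond Slco5a1. On 1 side of Dppa5a are Ooep, at -0.08, and Ddx43, at 0.76, and on the other Gsta2 was not detected. Morc1, Ildr2, Kdr, Atg5, Bmp7, Ooep and Slco5a1 changed sign under at least 1 scaling.

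The promoters of 4 members (Mael, Kit, Prdm1 and Dazl) were found in RefSeq (GRCm38.p6), and the 250 bases before the start were searched on both strands for GCGGGA, the motif class of E2F6, and CACGTG, the E-box that MGA and MAX bind. The former occurs in 16.9% of 32851 such windows, the latter in 6.02% and both in 1.45%. Mael held both, each once, Kit held GCGGGA at 2 places and no E-box, and Prdm1 and Dazl held neither. The Mael motifs are shown in capitals within 30 bases of its strand, which is the minus strand, at chr1:166238870-166238899 and chr1:166238950-166238979.
Mael, GCGGGA read on the other strand: gctcctcctcccTCCCGCcccctccgcccc
Mael, E-box: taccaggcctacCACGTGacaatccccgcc

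The windows of the 4 members held 15 to 20 CpG dinucleotides, against a median of 6 over all windows. A match in a window is no binding site, and a window without a match says nothing of the factor.

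Several members are also used outside germ cells, so markers of other cells were read with them. Summed linear levels are given for each list, and the brightest probes weigh most in them. All 9 markers of primed epiblast were detected on both arrays, with a median difference of 0.49 and 8 of them above 0. Fst (2.40), Nodal (1.49), Pou3f1 (1.46) and Tdgf1 (1.19) were higher in ELA-EpiSC by at least 1, while Fgf5 differed by 0.16 and Otx2 by 0.0049. The sum was 311645 in EpiSC against 310424 in ELA-EpiSC, of which Dnmt3b, at -0.84, made up 44.2% and 24.9%. Of 10 ground-state ES markers, all were detected on both, with a median of -0.27 and 3 of them above 0. Lower in ELA-EpiSC by at least 1 were 4 of them (Tbx3, Nr0b1, Tfcp2l1 and Fgf4). Tfcp2l1 and Fgf4 were no longer past 1 with the spike-in probes set equal. Zfp42 differed by -0.22, Klf4 by 0.16 and Esrrb by 0.43. The sum was 9842 and 4687, of which Tbx3 and Fgf4 made up 48.3% and 21%, and without them 5086 and 3701. Of 8 committed germ cell markers, 6 were detected on both, with a median of 0.11 and 4 of them above 0. The sum was 9153 and 5921, of which Sycp3 made up 71.5% and 44.3%, and without it 2612 and 3299.

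Tfap2c and Gata3 are genes of trophoblast, and all 9 markers of that list were detected on both arrays. Ascl2, Gata3 and Elf5 were lower in ELA-EpiSC by at least 1, at -3.00, -2.56 and -1.48. With the spike-in probes set equal Elf5 stood at -0.94. Cdx2 was near background at 6.27 and 6.47, and the sum was 294694 in EpiSC against 244389 in ELA-EpiSC. The keratins Krt18 and Krt8, which other epithelia express too, made up 94.3% and 98.4% of it, and the other 7 markers summed to 16700 and 3817. Of 12 markers of visceral or primitive endoderm, 10 were detected on both and 2 in EpiSC only. The 10 had a median of -0.50, and 4 of them were above 0, with Sox7 at 0.73. Hnf4a (-5.12), Amn (-2.75) and Gata4 (-2.39) were lower, Ttr was at least 10.7-fold higher in EpiSC, and the sum was 60335 and 33131. Foxa2 (-0.44) and Sox17 (-0.93) made up 63.4% and 77.2% of it, and without them it was 22105 and 7560. Of 7 surface ectoderm markers, 6 were detected, with a median of -0.29 and 2 of them above 0. Grhl3 was lower (-1.06, no longer past 1 with the spike-in probes set equal). Tfap2b was not detected. The sum was 8317 and 7799, of which Grhl2 (0.18) made up 47.6% and 57.6%. The part of these cell types in the differences of the members was not tested.

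Kit is also a gene of blood, mast cells and melanocytes. Of 8 blood and mast cell markers, 7 were detected on both arrays, with a median of -0.13 and 2 of them above 0. The sum was 10411 in EpiSC against 6996 in ELA-EpiSC, of which Kdr (-0.43) made up 65% and 71.6%. Gata1 stood at 10.94 and 7.23 (-3.71), Lmo2 at 7.79 and 8.91 (1.12), and Cpa3, a protease of mast cells, was not detected on either. Of 5 melanocyte markers, 4 were detected on both arrays and Dct on neither, with a median of 0.35 and 3 of them above 0. Mitf stood at 7.67 and 9.03 (1.36), while Sox10 differed by 0.56, Tyr by 0.13 and Pmel by -0.10. The sum was 821 and 1208. Pmel and Mitf made up 64.3% and 68.5% of it, and without them it was 293 and 381. Of 6 fibroblast markers, 5 were detected on both, with a median of 0.50 and Col1a1 at 7.07 and 10.79 (3.72). The sum was 3564 and 5706. Col1a2 (0.08) and Thy1 (0.05) made up 84.4% and 55.3% of it, and without them it was 556 and 2549. Their part in the level of Kit was not tested.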

How the data were processed

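Each group had 1 array. The deposited scanner files hold linear intensity per spot, made per the file headers with Feature Extraction 10.7.3.1 (9.1 in the submitters' processing notes) and not normalized. The authors also deposited log2 values, made per their methods by background correction and quantile normalization in limma; these were used as an alternative. Here, mean spot signals were corrected for local background by normexp (offset 50, all spots; limma 3.58.1, R 4.3.3). Control spots were left out, as were spots flagged as outliers on the array concerned (158 in EpiSC, 117 in ELA-EpiSC). The arrays were quantile normalized, taken as log2 and averaged over spots of a probe. The steps were tested on simulated data. The array carried 55681 probes in 59305 non-control spots. Median spot signal was 71.7 in EpiSC and 79.1 in ELA-EpiSC, and the number of arrays limits precision. The offset compresses differences of dim probes, and quantile normalization hides a shift shared by all genes.

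A probe with several spots was detected where at least 0.5 of them were well above background. For a gene detected on 1 array, a bound is given from the bright value over the dim value or the lowest detected signal, whichever was higher (5.89 in EpiSC and 6.11 in ELA-EpiSC, log2). Of 29796 probes with a RefSeq accession, 28026 matched the RefSeq gene table. All members are named, and of each list the genes past 1 and those on which a result turns. Members and lists were chosen with earlier results of these data known. Protein sequences were not used here.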

Additional observations from a re-analysis of the deposited data

How the results depend on the processing

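No paired analysis was possible because a group holds a single array, and no replicate could be left out. The count of members higher by at least 1 in ELA-EpiSC was 1 (Tfap2c) under all 17 alternatives, among them a lower threshold of 1.5-fold. The count of members lower by at least 1 was 2 as reported, 1 with arrays set to the median of all probes after normexp, 1 with the mean of all detected probes of a gene (Dppa5a in both cases) and 0 with the spike-in probes set equal. It was 3, with Dppa2 added, under an offset of 0 or 16, no background correction and the processed signal. The looser threshold of 1.5-fold, in place of a difference of 1, gave the same 3. The share of all genes was counted for the reported setting only, so the counts under alternatives have no such share beside them. The median difference of the members, -0.74 as reported, was -1.08 with an offset of 0, -0.94 with an offset of 16, -0.93 without background correction, -1.15 with the processed signal set to the 75th percentile, -0.90 with the 75th percentile after normexp, -0.21 with the spike-in probes set equal, -0.93 in the deposited log2 values and -0.30 with no filter on detection. The median of all genes, -0.0026 as reported, was -0.16 with the 75th percentile after normexp, -0.08 with the processed signal and 0.53 with the spike-in probes set equal. It was -0.0039 with an offset of 0, -0.0033 with an offset of 16, -0.0028 without background correction and 0.0048 in the deposited values. The change under the spike-in scaling is that of its own construction, an addition of 0.54. Under no filter undetected members enter. The cause of the other changes was not tested. Kit turned positive with the spike-in probes set equal and with the median of all probes, and Prdm1 and Dppa3 with the spike-in probes only.

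Outlier flags were handled in 2 ways. Spots were left out on the array that carried the flag, as reported; leaving them out of both arrays was added after the data had been seen. It gave the same counts, a median of -0.75 and, for Dppa4, -1.05. Signal over background limits what Dppa3, Dazl and Prdm14 can show: their spots read at most 52.0 intensity units, so that Dppa3 gives a bound and Dazl and Prdm14 no difference.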
